A study of Mus musculus with 6 samples.

Results

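CXCL12-abundant reticular cells are stromal cells of the bone marrow that send long processes between the sinusoids and supply blood-forming cells with CXCL12, stem cell factor and interleukin 7. They carry the leptin receptor, depend on transcription factors such as Foxc1 and Ebf3, and include the cells from which marrow adipocytes form, so that several genes named after fat, such as Adipoq, are also used by reticular cells. Here, 10 genes of this niche were followed in RNA from preparations labelled bone endothelial cells (BECs): the reticular cell genes Cxcl12, Kitl, Lepr, Il7, Ebf3 and Foxc1, and the adipocyte genes Adipoq, Lpl, Cfd and Plin1. They were taken by symbol from the 37991 genes of the count table, and all 10 were found and tested.

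The RNA is given as coming from tibia of 12-week-old mice of the strain labelled c57/Bl6, in 3 libraries from females and 3 from males. The study's methods for isolating BECs name femurs as well as tibiae. The labels name no transgene, agent or other treatment for either sex. BECs were purified by endomucin, a surface glycoprotein of capillary and venous endothelium, and the study's methods keep the 3 samples of best RNA quality of each set. Since neither the labels nor these methods say how many mice stand behind a library, the p-values below measure the spread between these libraries. The comparison of males with females asks whether the genes of the stromal and fat cell niche that are found in BEC preparations differ between the sexes.

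Total counts per library were between 47678806 and 58325745, and levels are given as CPM, a gene's counts relative to its library's total after TMM scaling by edgeR. At this depth 3 counts are between 0.0477 and 0.0639 CPM, a floor that covers counting error only. Transcripts of several cell types were present, and in every library the endothelial markers summed to less than the neutrophil, erythroid, macrophage or B cell markers. The 12 endothelial markers summed to 328 to 456 CPM in females against 188 to 285 CPM in males, lower in every male, and none was at 0. Endomucin itself (Emcn) ranged from 5.35 to 10.5 CPM in females and from 3.08 to 6.72 CPM in males. The 12 neutrophil markers summed to 18522 to 22604 CPM in females against 31383 to 43279 CPM in males, higher in every male. The 10 macrophage markers, at 4281 to 4617 CPM in females and 2939 to 3909 CPM in males, were lower in every male. Erythroid markers (8 genes) were also higher in every male, at 12115 to 17409 CPM in females and 18431 to 27092 in males. Because the RNA of all cells in a sample is read together, fewer cells of a type and less RNA per cell cannot be told apart here.

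All 10 members had lower fitted levels in males than in females, with a median log2 fold change of -0.67 against -0.00125 over the 19480 genes tested. The difference was largest for the adipocyte genes Plin1, Cfd and Adipoq, whose 3 male libraries all lay under all 3 female libraries. It was smaller for the reticular cell genes and for Lpl, the remaining adipocyte gene, and in each of these the sexes overlapped. Lpl, at a log2 fold change of -0.65, differed less than the reticular cell genes Il7 (-0.93) and Lepr (-0.69). By edgeR's quasi-likelihood test none of the 10 passed an adjusted p of 0.05, where 0.0411% of all genes did, and 7 had an unadjusted p under 0.05, where 4.76% of all genes had one and were lower in males. DESeq2's Wald test, the tool named in the study's methods, called 3 members lower in males, Adipoq, Plin1 and Cfd, beside 0.771% of all genes. The share of all genes with no overlap and lower in males was 7.29%, beside 3 of the 10 members. Which members passed therefore turned on the tool. Plin1 entered these counts through the females alone, since no male library reached the filter on low counts, so it had to differ. Without it, 9 of 9 were lower in males, 6 had an unadjusted p under 0.05, and Adipoq and Cfd were the 2 that DESeq2 called and that did not overlap.

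**Figure D1:**
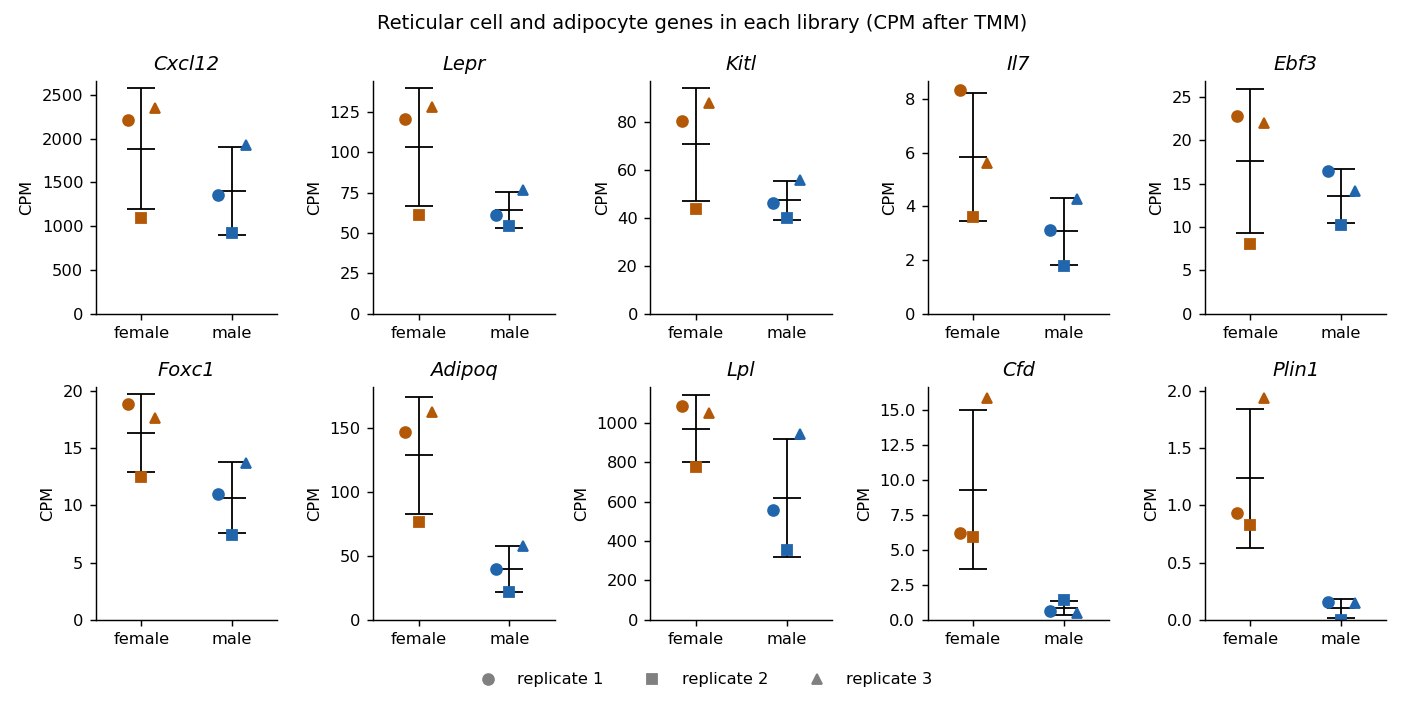
Level of each of the 10 genes in CPM (vertical axes, linear, from 0) in the 3 female and 3 male libraries. Points are single libraries, with the replicate shown by shape, and the bars are the mean and 1 SD. The sexes are apart for Adipoq, Cfd and Plin1 and overlap for the others, and female replicate 2 is the lowest female for every gene.

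Cxcl12 (ENSMUSG00000061353, chr6:117144945-117158328 on GRCm39), which encodes the chemokine that holds haematopoietic stem cells and B cell precursors in the marrow, stood between rank 33 and rank 109 by CPM among the genes tested. It was at 2213, 1090 and 2349 CPM in female replicates 1, 2 and 3 and at 1351, 927 and 1923 CPM in male replicates 1, 2 and 3. The sexes overlapped, since female replicate 2 lay under 2 of the 3 males. The means were 1884 ± 691 CPM in females and 1401 ± 500 in males (SD, n = 3 each), and the log2 fold change, male over female, was -0.43 with a standard error of 0.32 and an edgeR adjusted p of 0.708.

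Kitl (ENSMUSG00000019966, chr10:99851492-99936278) encodes stem cell factor, the ligand of the receptor Kit. Its level was 80.3, 43.6 and 87.7 CPM in the females and 46.1, 39.7 and 55.7 CPM in the males. Again female replicate 2 lay among the males while the other 2 females lay above them. The log2 fold change was -0.58 with a standard error of 0.24, and the edgeR adjusted p was 0.460.

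Lepr (ENSMUSG00000057722, chr4:101574601-101676237), the leptin receptor that is widely used to mark these reticular cells, was at 120, 61.4 and 128 CPM in females and at 61.3, 54.6 and 76.6 CPM in males. Female replicate 2 lay just above male replicate 1 and below male replicate 3. The sexes separated without female replicate 2 and also, at 61.4 against 61.3 CPM, without male replicate 3. Its log2 fold change was -0.69 with a standard error of 0.25, an edgeR adjusted p of 0.410 and a DESeq2 adjusted p of 0.122. Kitl and Lepr followed each other more closely than any other 2 members: after each gene was centred on its own mean, their log2 levels differed by a root mean square (RMS) of 0.058 over the 6 libraries. Their ratio, looked at after this closeness was seen, ran from 1410 to 1499 Lepr counts per 1000 Kitl counts in females and from 1331 to 1376 in males. No share of all genes was computed for this ratio.

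Il7 (ENSMUSG00000040329, chr3:7635054-7678825, minus strand), the cytokine that B cell precursors need, was a low-level gene at 8.35, 3.59 and 5.60 CPM in females and 3.13, 1.79 and 4.28 CPM in males. Its highest male overlapped the lowest female. Of the reticular cell genes it had the largest fitted difference, a log2 fold change of -0.93 with a standard error of 0.38 and an edgeR adjusted p of 0.453.

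The 2 transcription factors overlapped between the sexes as well. Foxc1 (ENSMUSG00000050295, chr13:31990616-31996459), a forkhead factor needed to keep reticular cells from becoming fat cells, was at 18.8, 12.5 and 17.7 CPM in females and at 10.9, 7.43 and 13.7 CPM in males. Its log2 fold change was -0.61, with a standard error of 0.24 and an edgeR adjusted p of 0.430. Ebf3 (ENSMUSG00000010476, chr7:136795402-136916218, minus strand), a factor of the early B cell factor family that keeps the niche open in adult marrow, was at 22.9, 8.08 and 22.0 CPM in females and at 16.4, 10.3 and 14.2 CPM in males. The lowest of all 6 libraries for Ebf3 was a female, replicate 2. Ebf3 had the smallest difference of the 10 members, with a log2 fold change of -0.37, a standard error of 0.36 and an edgeR adjusted p of 0.781.

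Adipoq (ENSMUSG00000022878, chr16:22964106-22976810) encodes adiponectin, a hormone of fat cells that is also transcribed in marrow reticular cells. It was at 147, 76.5 and 162 CPM in females and at 39.5, 22.1 and 57.9 CPM in males. Every male lay below every female, and the female mean of 128 ± 45.7 CPM was 3.22 times the male mean of 39.8 ± 17.9 CPM (SD, n = 3 each). The log2 fold change was -1.69 with a standard error of 0.37 and an edgeR adjusted p of 0.183, while DESeq2 gave an adjusted p of 0.0284.

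Cfd (ENSMUSG00000061780, chr10:79726668-79728496) encodes adipsin, the complement factor D that fat cells secrete. It was at 6.17, 5.90 and 15.8 CPM in females, from 388, 312 and 744 counts, and at 0.607, 1.42 and 0.506 CPM in males, from 32, 70 and 24 counts. The groups did not overlap, with means of 9.30 ± 5.66 CPM in females and 0.844 ± 0.501 CPM in males (SD, n = 3 each). Cfd was the member nearest to edgeR's threshold, with a log2 fold change of -3.46, a standard error of 0.51 and an adjusted p of 0.0547, and it passed with DESeq2 at an adjusted p of 7.09e-13. The edgeR log2 fold change was -2.84 without female replicate 3 and -4.06 without male replicate 2. It was the only member for which male replicate 2 was the highest male.

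Plin1 (ENSMUSG00000030546, chr7:79369966-79382718, minus strand) encodes perilipin 1, the coat protein of the fat droplet and the antigen by which marrow adipocytes are often stained. It had few reads, 59, 44 and 91 counts in females and 8, 0 and 7 in males, or 0.938, 0.832 and 1.94 CPM against 0.152, 0 and 0.148 CPM. The 0 of male replicate 2 allows up to 0.0609 CPM. The log2 fold change was -3.59 with a standard error of 0.80, an edgeR adjusted p of 0.158 and a DESeq2 adjusted p of 3.44e-04.

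Lpl (ENSMUSG00000015568, chr8:69284603-69360100) encodes lipoprotein lipase, which frees fatty acids from circulating triglycerides. It ranked between 78 and 333 by CPM, at 1086, 778 and 1053 CPM in females and 556, 355 and 943 CPM in males. Male replicate 3 lay above female replicate 2, so the sexes overlapped, and the log2 fold change was -0.65 with a standard error of 0.31 and an edgeR adjusted p of 0.531.

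**Figure D2:**
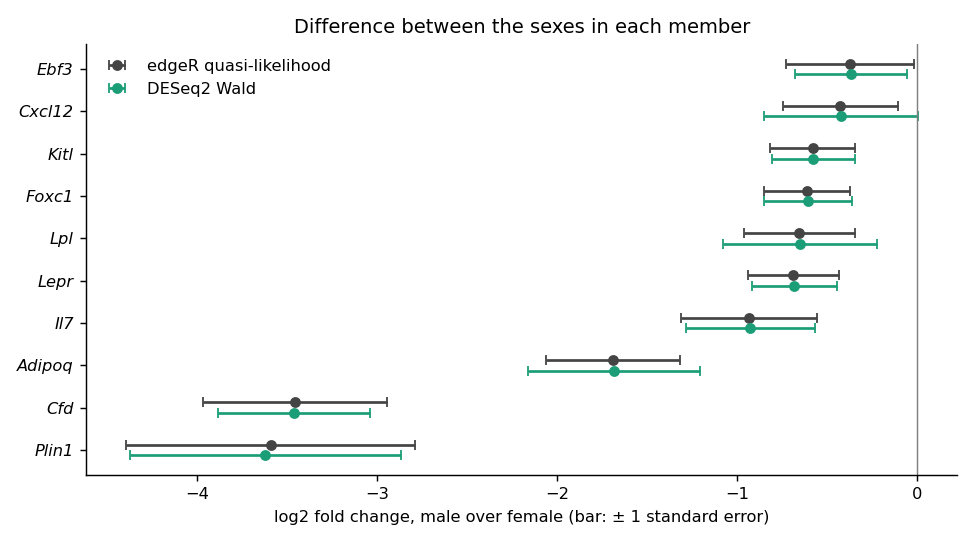
Log2 fold change, male over female (horizontal axis), of the 10 genes from edgeR and DESeq2. Points are estimates and bars 1 standard error. Adipoq, Cfd and Plin1 lie at -1.69, -3.46 and -3.59 by edgeR, and the other 7 genes between -0.93 and -0.37.

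The DESeq2 calls rested on single libraries to different degrees, by a check chosen after the values were seen. Without female replicate 3, Cfd alone was called (adjusted p of 1.09e-07), beside 0.168% of all genes, and Plin1 and Adipoq had adjusted p-values of 0.0933 and 0.392. Adipoq also missed the threshold without female replicate 1 and without male replicate 1, at 0.208 and 0.162, where Plin1 and Cfd were called beside 0.301% and 0.532% of all genes. Without female replicate 2, 5 members were called, Kitl and Lepr with the former 3, beside 1.00% of all genes. Leaving out male replicate 3 gave 7, all but Cxcl12, Kitl and Ebf3, beside 2.20% of all genes.

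Replicates of each sex also differed as a whole in these genes. Female replicate 2 was the lowest female for all 10 members, and male replicate 2 the lowest male for 9, all except Cfd. Male replicate 3 was the highest male for 7. Within a sex, the highest library was 2.16 times the lowest for Cxcl12 in females and 2.07 times in males, and 2.83 times for Ebf3 in females. Without female replicate 2 all 10 members separated by sex, beside 12.7% of all genes, and without male replicate 3 there were 7, beside 16.8%, or 9 and 6 of 9 when Plin1 is not counted. Female replicate 2 and male replicate 2 were also the lowest of their sex in the sum of endothelial markers, at 328 and 188 CPM, and of osteoblast markers, at 353 and 318 CPM. The same 2 libraries were the highest of their sex in neutrophil markers, at 22604 and 43279 CPM, and the part of the cell mixture in these differences was not tested.

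Taken relative to Cxcl12 in the same library, a scale chosen after the values were seen, the female libraries lay close together for Adipoq. Adipoq had 66.4, 70.2 and 69.0 counts per 1000 Cxcl12 counts in females and 29.2, 23.8 and 30.1 in males, and the female mean was 2.47 times the male mean. Cfd, Plin1 and Il7 were lower in every male on this scale too. Thus 4 of the 9 ratios did not overlap, or 3 of 8 without Plin1, where 1.15% of all genes had such a ratio. For Il7 the gap was narrow, from 2.38 counts per 1000 Cxcl12 counts in the lowest female to 2.32 in the highest male. Lepr, at 54.4 to 56.4 in females and 39.8 to 58.9 in males, overlapped, as did Kitl, Lpl, Foxc1 and Ebf3. Relative to Lepr, Adipoq was at 1220 to 1263 counts per 1000 Lepr counts in females and 404 to 756 in males. For the Lepr scale the share of all genes was not computed. Set against the endothelial markers, a scale likewise chosen after the values were seen, the order of the sexes depended on the member and on the marker. Per count of each of the 12 markers in turn, Cxcl12 was higher in every male for 9 and overlapped for 3 (Pecam1, Tie1 and Stab2), and Lepr was higher in every male for 6 and overlapped for 6. Adipoq was lower in every male for 7 markers and overlapped for 5. All 12 markers were themselves lower in males, with a median log2 fold change of -1.16, which raises such ratios in males for any gene. The share of all genes that separated on these scales was not computed, so the counts describe the scales as well as the members. With Cdh5, the cadherin of endothelial junctions, Cxcl12 had 69085 to 72152 counts per 1000 Cdh5 counts in females and 106943 to 142841 in males. With Pecam1, which is also made by blood cells, it had 11706 to 28440 counts per 1000 Pecam1 counts in females and 12118 to 28074 in males.

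**Figure D3:**
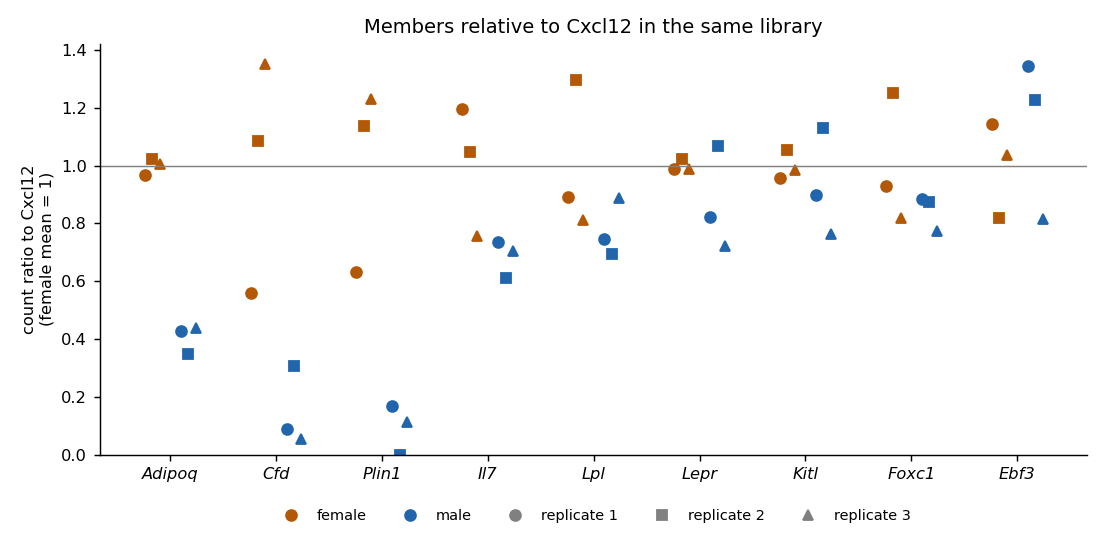
Counts of each of 9 members relative to Cxcl12 in the same library (vertical axis, linear, female mean set to 1). Points are single libraries, coloured by sex and shaped by replicate. The 3 females of Adipoq lie close to 1 and its 3 males under 0.5, whereas Lepr, Kitl, Foxc1, Lpl and Ebf3 overlap.

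Levels of different genes were compared per kilobase of annotated exon. In females, Cxcl12 stood first at a mean of 226 CPM per kilobase, followed by Lpl at 79.5 and Adipoq at 56.4. Lpl and Adipoq overlapped in females. A middle group of Cfd (9.65), Lepr (9.28) and Kitl (8.44) overlapped in sequence, then came Foxc1 (2.79), Ebf3 (1.54), Il7 (1.03) and Plin1 (0.194), of which Ebf3 and Il7 overlapped. In males the order was the same for the leading 3 genes, at 168, 50.5 and 17.5 CPM per kilobase, none of them overlapping. Cfd, 4th in females, was 8th in males at 0.876 CPM per kilobase and there overlapped Ebf3 above it and Il7 below it.

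For each member, the protein-coding genes with the most similar pattern over the 6 libraries were sought among 10479 genes with a mean of at least 5 CPM. The nearest to Cxcl12 were Sgce and Clmp, with RMS differences of 0.044 and 0.068 on the log2 scale. Kitl was nearest to Lepr and then to Adgrf5 (0.074), and Lepr to Kitl and then to Amot (0.092). Rasip1 (0.058) and Rcn3 (0.070) were nearest to Foxc1, Fmo2 (0.094) and Igsf3 (0.107) to Ebf3, and Smoc1 (0.096) and Fbln5 (0.110) to Il7. Among the adipocyte genes, Adipoq was nearest to Gpr182 (0.124) and Adh1 (0.144), and Lpl to Tpm2 (0.078) and Ackr1 (0.109). The 2 genes nearest to Cfd, Aldh1a2 and Car3, differed from it by 0.615 and 0.719. For Plin1 the nearest genes were Car3 (0.107) and Spon1 (0.173), but at its low level the 0.5 CPM added before the log flattened its pattern, so this closeness does not hold on the CPM scale, where Car3 had means of 18.2 CPM in females and 5.13 CPM in males.

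Promoter sequence is shown for the 3 genes that were lower in every male, with Cxcl12, which was not, for comparison. RefSeq promoters on GRCm38.p6 matched 8 of the 10 members, and each run below holds the 250 bases before the RefSeq start, 5′ to 3′ on the gene's strand. Capitals mark matches on either strand to an EBF motif (CCCNNGGG), a C/EBP motif (TTGCNNAA) or a forkhead motif (GTAAACA).
Adipoq, chr16:23146286-23146535, + strand: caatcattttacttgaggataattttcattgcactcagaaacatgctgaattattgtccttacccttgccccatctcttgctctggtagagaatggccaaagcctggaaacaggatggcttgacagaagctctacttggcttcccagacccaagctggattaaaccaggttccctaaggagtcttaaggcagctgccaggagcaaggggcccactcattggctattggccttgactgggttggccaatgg
Plin1, chr7:79732777-79733026, - strand: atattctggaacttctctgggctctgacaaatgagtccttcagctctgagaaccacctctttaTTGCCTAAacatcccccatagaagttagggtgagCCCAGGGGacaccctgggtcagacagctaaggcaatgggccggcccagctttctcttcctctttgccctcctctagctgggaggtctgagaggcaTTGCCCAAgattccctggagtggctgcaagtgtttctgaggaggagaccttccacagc
Cfd, chr10:79890603-79890852, + strand: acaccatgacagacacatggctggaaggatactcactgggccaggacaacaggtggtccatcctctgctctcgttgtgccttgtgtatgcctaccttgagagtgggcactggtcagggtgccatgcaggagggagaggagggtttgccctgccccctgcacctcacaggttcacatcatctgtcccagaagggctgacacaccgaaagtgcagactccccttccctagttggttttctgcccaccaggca
Cxcl12, chr6:117168285-117168534, + strand: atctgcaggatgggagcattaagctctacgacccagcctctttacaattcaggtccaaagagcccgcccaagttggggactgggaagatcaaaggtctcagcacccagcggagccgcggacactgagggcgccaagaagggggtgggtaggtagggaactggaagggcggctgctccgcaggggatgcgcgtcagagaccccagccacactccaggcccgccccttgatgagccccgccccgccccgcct
Plin1 held 1 EBF match and 2 C/EBP matches, which did not overlap each other, and the Adipoq, Cfd and Cxcl12 windows held none of the 3 motifs. Of the other matched members Ebf3 alone held a motif, an EBF match, and Kitl, Foxc1 and both Lepr promoters held none. Among all 32851 promoter windows of this length, 11.8% held the EBF motif, 9.56% the C/EBP motif and 3.17% the forkhead motif, so that a match says only that these letters are there.

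Among 18 other reticular cell genes, none of which was at 0 in any library, 15 were lower in males and 3 higher, with a median log2 fold change of -0.39 against -0.00125 over all genes. None passed edgeR's adjusted threshold, and 6 had an unadjusted p under 0.05 and were lower in males, beside the 4.76% of all genes. Vcam1, the adhesion molecule that is also made by marrow macrophages, had the highest CPM of the list, at 1262, 1039 and 1142 CPM in females and 870, 768 and 993 CPM in males. It did not overlap between the sexes, with a log2 fold change of -0.39 and an edgeR adjusted p of 0.441. Igfbp5, a binding protein of insulin-like growth factors, was at 557, 266 and 788 CPM in females and 257, 211 and 272 CPM in males. Grem1, an antagonist of bone morphogenetic proteins, was at 48.9, 40.7 and 45.3 CPM in females and 22.8, 19.7 and 41.7 CPM in males. Igfbp5, Esm1, Kng1 and Grem1 had log2 fold changes of -1.12, -1.20, -0.81 and -0.68 with edgeR adjusted p-values between 0.320 and 0.393. Grem1 passed edgeR's threshold without male replicate 3, at an adjusted p of 0.0197. Igfbp4 overlapped widely, at a log2 fold change of -0.38. DESeq2 called 1 gene of this list, Fstl1, chosen here after its values were seen, at an adjusted p of 0.0498, where 0.771% of all genes were called lower in males. Its log2 fold change was -0.91 by edgeR.

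Other adipocyte genes were divided in direction, although their summed level was lower in every male, at 945 to 1166 CPM in females and 718 to 937 CPM in males. Of 20 listed, 18 were tested, 10 were lower and 8 higher in males, and their median log2 fold change was -0.16. Lep, the hormone leptin, was at 0 in 5 of the 6 libraries and Cidea, a gene mainly of brown fat, at 0 in all 6, while the lipase genes Pnpla2 and Lipe, named after their values were seen, had means of 72.4 and 23.8 CPM over the 6 libraries. Pparg, the master transcription factor of fat cells, was at 66.1, 79.3 and 83.0 CPM in females and 51.0, 49.0 and 66.0 CPM in males, with no overlap. Cd36, a fatty acid transporter, was at 49.7, 44.8 and 66.1 CPM in females and 36.6, 28.0 and 42.1 CPM in males, also with no overlap. Dgat2, which completes triglyceride synthesis, lay the other way without overlap, at 21.9, 21.5 and 20.9 CPM in females and 30.3, 31.6 and 26.3 CPM in males. These 3 had edgeR adjusted p-values of 0.334, 0.320 and 0.259. Fabp4, the fatty acid carrier of fat cells, capillary endothelium and macrophages, was at 154, 187 and 330 CPM in females and 86.6, 84.1 and 188 CPM in males, with male replicate 3 above 2 of the 3 females, and Gpd1 and Scd1 had log2 fold changes of -0.51 and -0.32. Cidec, a fat droplet gene named after its values were seen, had the largest difference of the list, a log2 fold change of -1.65 with an edgeR adjusted p of 0.512, from 35, 14 and 44 counts in females and 3, 6 and 18 in males. No gene of this list was called by edgeR or DESeq2, while 4 were lower and 1 higher in males at an unadjusted edgeR p under 0.05, beside 4.76% and 5.03% of all genes.

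Receptors and partners of the members' products were divided in direction, 6 of 14 tested being lower and 8 higher in males, with a median log2 fold change of 0.027. Their summed level was higher in every male, at 780 to 874 CPM in females and 880 to 921 CPM in males. Gpihbp1, the protein of capillary endothelium that carries lipoprotein lipase to the vessel wall, was the exception in size. It was at 7.41, 4.52 and 11.8 CPM in females and 2.01, 1.40 and 3.79 CPM in males, and its log2 fold change of -1.72 had an adjusted p of 0.207 by edgeR and 0.00135 by DESeq2. Cxcr4, the receptor of CXCL12 that is found on neutrophils, B cells and blood stem cells, was at 151, 148 and 168 CPM in females and 193, 182 and 183 CPM in males. Kit, the receptor of stem cell factor, was lower, at 19.1, 14.2 and 16.4 CPM in females and 15.0, 11.8 and 10.3 CPM in males, and the adjusted p of both receptors was 0.499 by edgeR. Adipor1, a receptor of adiponectin, had a log2 fold change of 0.24, and C3, the complement protein that the factor D pathway cleaves, one of 0.041.

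**Figure D4:**
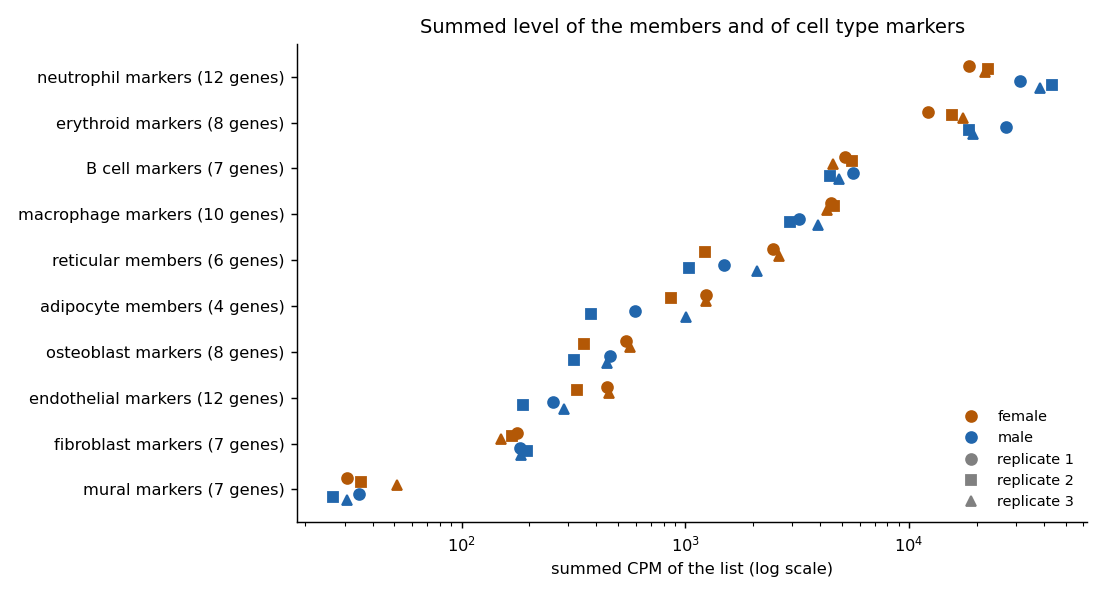
Summed CPM (horizontal axis, log scale) of the 2 groups of members and of 8 marker lists in each library, coloured by sex and shaped by replicate. Neutrophil and erythroid sums are higher, and endothelial and macrophage sums lower, in every male, while the reticular and adipocyte members overlap between the sexes.

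The summed level of the 6 reticular members was 1219 to 2610 CPM in females and 1041 to 2088 CPM in males. That of the 4 adipocyte members was 861 to 1240 CPM in females and 378 to 1002 CPM in males, and both overlapped. All 12 endothelial markers were lower in males, 4 of them without overlap, beside the 7.29% of all genes, and 10 at an unadjusted p under 0.05, beside 4.76%. Their median log2 fold change was -1.16, against -0.67 for the members, and that of Stab2, the scavenger receptor of sinusoids, was -0.69. All 10 macrophage markers, Vcam1 among them, were lower in males too, 8 without overlap, with a median log2 fold change of -0.40, from -1.97 for Marco to -0.38 for Siglec1. Of the 12 neutrophil markers 11 were higher in males, 9 without overlap, where 7.25% of all genes were higher without overlap, and the granule protein gene S100a9 had a log2 fold change of 0.97. The summed levels of the 8 osteoblast markers (353 to 567 CPM in females and 318 to 459 in males), the 7 mural markers and the 7 B cell markers overlapped. As single genes, Tagln of the mural list was lower in every male, beside 7.29% of all genes. Acta2 of the mural list and Pax5 of the B cell list were higher in every male, beside 7.25%. The 7 fibroblast markers summed to 150 to 177 CPM in females and 183 to 196 in males, higher in every male, but of the 6 tested 3 were lower and 3 higher in males, with a median log2 fold change of -0.11. Pi16 alone went from a mean of 41.9 CPM in females to 69.0 CPM in males. The part of these cell types in the lower levels of the members was not tested.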

How the data were processed

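The authors deposited whole-number read counts per gene and library, without normalization or pooling. The paper's methods give STAR 2.7.10a on GRCm39 and featureCounts 2.0.1, whereas the submitters' processing notes give TopHat2 2.0.11, featureCounts, mm9 and NCBIM37, and the labels give another library kit and read length, so the exact path to the counts is unsettled, as is counting by strand. Members and lists were chosen with earlier results of these data known. GENCODE M39 on GRCm39 gave symbols, positions and exon lengths to 31073 of the 37991 identifiers.

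Males were compared with females by edgeR 4.0.16 in R 4.3.3 (TMM, default filter on low counts, robust quasi-likelihood test, Benjamini-Hochberg adjustment over 19480 genes) and by DESeq2 1.42.0 (Wald test). The fits were tested on simulated data. Likeness is the RMS difference of centred log2(CPM + 0.5). Named genes were all members, and from each other list, up to 4 of smallest p and 2 of highest mean CPM, and the 2 nearest genes of each member. Of the marker lists, sums and few of these genes are printed. Alternatives were other scalings and filters, DESeq2, non-robust estimation, the replicate block and each library left out.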

Additional observations from a re-analysis of the deposited data

How the results depend on the processing

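The direction was lower in males for every member under each of the 14 alternatives, 13 for Plin1, which at least 10 counts in every library removes. Of the 10 members, 0 were called by edgeR in the comparison of males with females, 1 (Cfd, adjusted p of 0.0414) with no filter on low counts, 3 by DESeq2's Wald test and 4 (Lepr, Adipoq, Plin1 and Cfd) with the replicate block, beside 0.0154%, 0.0850%, 0.771% and 1.06% of all genes called lower in males. Not counting Plin1, these were 2 by DESeq2 and 3 with the block. Leaving out single libraries gave 0 edgeR calls among the members in each case, between 1 and 7 DESeq2 calls, and between 3 and 10 members without overlap. Of the other reticular cell genes, other adipocyte genes and receptors and partners, 0 genes were called by edgeR, 2 by DESeq2, 7 with the replicate block and between 0 and 1 with a library left out, the 1 being Grem1 without male replicate 3. All genes called in either direction were 0.0411%, 2.08%, 2.20% and, without male replicate 3, 0.482%.

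The correlation between the deviations of same-numbered libraries from their group means was 0.248, 0.0613 and 0.361. Each female correlated best with the male of the same number, as did male replicates 1 and 3 with their females, and male replicate 2 correlated best with female replicate 1 (0.162). Since 1 of the 3 values is under 0.1 and the labels name no shared source, the numbers were not taken to pair the libraries. Over all genes the replicate block called 428 genes, where edgeR without it called 8.

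With genes over 1% of a library left out, the summed level of receptors and partners was 904 CPM in females and 988 in males, that of macrophage markers 4887 in females, and that of fibroblast markers 181 in females and 207 in males. Leaving these genes out of the totals raised the sum of every list alike, by 1.09 to 1.10 times. C3, at 0.041, changed sign with single libraries left out, and lay between -0.0871 and 0.292. For C3 the cause was not tested. Plin1 and Cfd rest on few reads, which limits their precision, and 3 libraries per sex limit all of the tests.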
